A study of Mus musculus with 6 samples.

Results

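Endoplasmic reticulum chaperones and foldases are the proteins that fold, glycan-check and disulfide-bond secreted and membrane proteins. The 9 genes described here were taken by symbol from the table of raw counts, and all 9 of the 9 listed (Hspa5, Hsp90b1, Calr, Canx, Pdia3, Pdia4, Pdia6, P4hb and Xbp1) were found among its 12023 genes. The cells were primary fibroblasts of the mammary fat pad of healthy females aged 8 to 12 weeks, of the inbred strains BALB/c and C57BL/6, with 3 biological replicates per strain. No transgene, deletion or treatment is named for either strain. The fat pads were digested with enzymes and the cells separated magnetically, with the target of that step not stated, and the number of animals behind a culture is not stated either. All cultures were grown for 4 days on plates coated with rat-tail collagen before RNA was taken. Libraries were made from the 3′ ends of polyadenylated RNA and held 1035485 to 4665896 counts. The design text asks how the fibroblasts of the strains differ at baseline.

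Proteins enter the endoplasmic reticulum unfolded. BiP, the product of Hspa5, binds their exposed hydrophobic stretches, the lectins calnexin and calreticulin hold those that carry a trimmed glycan, and protein disulfide isomerases form and reshuffle their cysteine bonds. When folding falls behind, the sensors IRE1, ATF6 and PERK start the unfolded protein response, in which IRE1 splices the mRNA of Xbp1 and the resulting factor, with ATF6, raises transcription of the chaperones. Fibroblasts secrete large amounts of collagen, which needs this machinery, and the product of P4hb also serves as the beta subunit of the prolyl 4-hydroxylase that modifies collagen chains.

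A sequence known from the promoters of ER chaperone genes is the ER stress response element, a CCAAT box bound by NF-Y that is followed at a fixed distance by a site for ATF6. It is shown here because it occurs in the promoters of several of the 9 genes. Promoter windows from RefSeq on GRCm38.p6, from 250 bases before to 50 bases after each annotated start, were available for all 9 genes. They were searched on both strands for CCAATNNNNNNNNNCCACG, and 5 of the 9 genes held at least 1 match, 6 matches in all. Over all 27025 genes with such a window, 37, or 0.137%, held one. The matches follow, each written 5′ to 3′ in the direction of the element, with its fixed letters in capitals.
Hspa5, chr2:34772025-34772043, gene strand +: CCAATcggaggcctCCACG
Hsp90b1, upstream match, chr10:86705638-86705656, gene strand -: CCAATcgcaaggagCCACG
Hsp90b1, downstream match, chr10:86705533-86705551, gene strand -: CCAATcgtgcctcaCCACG
Calr, chr8:84847075-84847093, gene strand -: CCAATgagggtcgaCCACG
Canx, chr11:50325800-50325818, gene strand -: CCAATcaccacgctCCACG
Pdia6, chr12:17266491-17266509, gene strand +: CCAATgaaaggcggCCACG

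In Hspa5 the match began 65 bases before the RefSeq start and in Pdia6 98 bases before it, both on the strand of the gene. GENCODE, used below for gene positions, starts Hspa5 at 34771970, so by that annotation the Hspa5 match lies inside the gene. In Hsp90b1 the matches began 212 and 107 bases before the start, the nearer one on the opposite strand. In Canx the match began at 145 bases and in Calr, on the opposite strand, at 162 bases before the start. The windows of Pdia3, Pdia4, P4hb and Xbp1 held no match of these letters, which says nothing of sites elsewhere or of other letters. No window of the 9 genes held the related element ATTGGNCCACG, present in 0.0444% of all genes, or TGACGTGG, the core of the XBP1 site, present in 0.714%. Of the 142 other listed pathway genes with a window, 5 held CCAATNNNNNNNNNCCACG: Creld2, Derl3, Dnajc3, Ero1b and Syvn1. The sequence is that of the C57BL/6J reference, and BALB/c bases were not analysed here. The windows of Hspa5 (chr2:34771840-34772139, gene strand +) and Hsp90b1 (chr10:86705395-86705694, gene strand -) are printed whole. These chaperones have the match nearest to a RefSeq start and the only pair. Capitals again mark the fixed letters of the matches, and a match on the opposite strand reads as its reverse complement.
Hspa5 promoter: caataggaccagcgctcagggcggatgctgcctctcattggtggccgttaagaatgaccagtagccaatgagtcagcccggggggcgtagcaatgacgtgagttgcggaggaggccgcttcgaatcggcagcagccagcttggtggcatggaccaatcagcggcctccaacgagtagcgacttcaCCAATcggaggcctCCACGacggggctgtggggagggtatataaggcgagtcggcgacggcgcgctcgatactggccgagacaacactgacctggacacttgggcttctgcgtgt
Hsp90b1 promoter: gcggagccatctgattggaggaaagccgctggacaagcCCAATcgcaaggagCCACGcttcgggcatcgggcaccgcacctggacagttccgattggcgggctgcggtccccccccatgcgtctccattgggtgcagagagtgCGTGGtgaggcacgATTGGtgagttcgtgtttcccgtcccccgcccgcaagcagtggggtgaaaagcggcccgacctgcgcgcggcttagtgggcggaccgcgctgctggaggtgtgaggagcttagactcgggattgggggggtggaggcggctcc

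**Figure D1:**
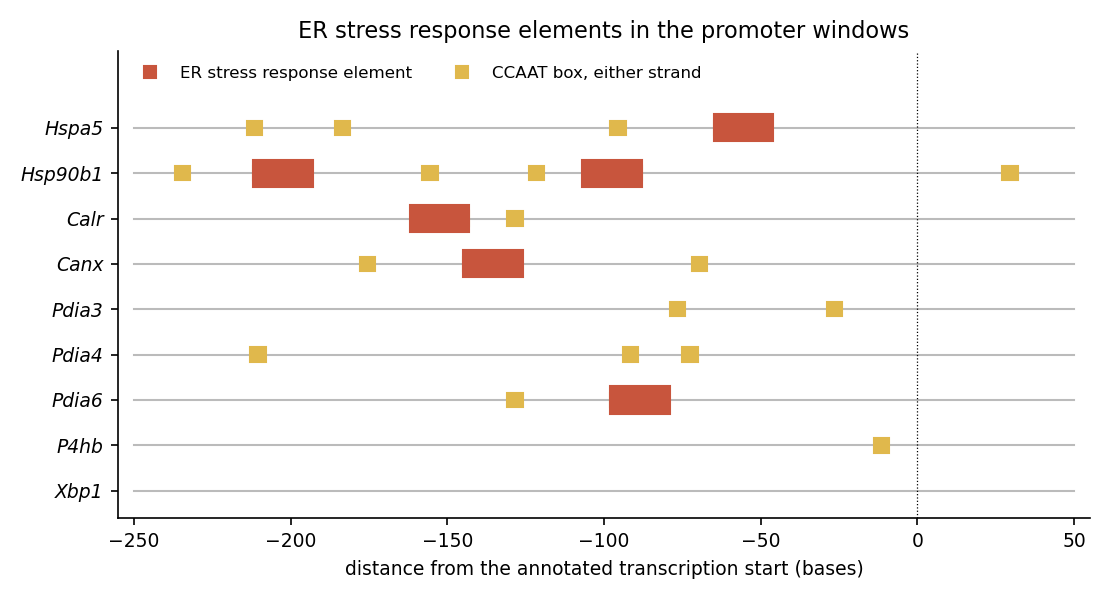
Position of ER stress response elements (tall red boxes) and of CCAAT boxes on either strand (short yellow boxes) in the promoter windows of the 9 genes, in bases from the RefSeq start (dotted line). Elements lie upstream of the RefSeq start in Hspa5, Hsp90b1, Calr, Canx and Pdia6, with 2 in Hsp90b1.

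Levels are given as CPM, which are counts scaled to a common library total with edgeR's TMM factors, with the SD over 3 libraries. Because reads come from the 3′ end, CPM are not divided by transcript length, and levels are compared between libraries and not between genes. Strain differences are log2, BALB/c minus C57BL/6, with their standard error, from edgeR's quasi-likelihood test over 8752 genes, called where the Benjamini-Hochberg adjusted p is under 0.05. In bulk RNA, fewer cells of a type and less RNA per cell cannot be told apart.

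One library stood apart. Among 5541 genes averaging 50 counts or more, 552, or 9.96%, were lower in C57BL/6 replicate 1 than in either other C57BL/6 library by 4-fold or more. For each of the other libraries, measured against its own strain, this number was 0 to 81. Among the 9 genes this held for 3, Hspa5, Canx and Pdia3, and in the other 5 libraries for 0. Each strain difference is therefore given with and without that library. Markers of fibroblasts, 11 of 12 of which were analysed, summed to 5019 to 12893 CPM in BALB/c libraries and 3412 to 13742 CPM in C57BL/6, with C57BL/6 replicate 1 the lowest of the 6. Markers of mammary epithelium, 12 of 13 analysed, summed to 1970 to 11711 CPM in BALB/c and 3169 to 18487 CPM in C57BL/6, with that library the highest. The other libraries were not alike either. Epithelial markers held 1970 CPM in BALB/c replicate 1 and 3169 CPM in C57BL/6 replicate 2, which had the highest fibroblast sums, 12893 and 13742 CPM. In BALB/c replicates 2 and 3 and C57BL/6 replicate 3 epithelial markers held 9125 to 11711 CPM. Leukocyte markers (9 of 11) held 526 to 726 CPM in BALB/c and 638 to 1057 CPM in C57BL/6. Endothelial markers (7 of 8) stayed at or under 98.5 CPM and adipocyte markers (3 of 7) at or under 75.7 CPM in every library, and pericyte and smooth muscle markers (9 of 9) held 569 to 753 CPM in BALB/c and 1060 to 1284 CPM in C57BL/6. The markers not analysed here include Lum for fibroblasts and Adipoq, Plin1, Lep and Cidec for adipocytes. The part of these other cells in the levels below was not tested.

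None of the 9 genes passed the test between the strains. In edgeR 0 of 9 passed the threshold, where 18 of all 8752 tested genes, or 0.206%, did. At an unadjusted p under 0.05 the count was 0 of 9 where 338 of all tested genes, or 3.86%, were, a share too low to read anything from 0 of 9. Each of the 9 had an adjusted p of 0.954. DESeq2, limma-voom and limma-voom with library quality weights called 0 of 9 as well. The fitted difference lay above 0 in 6 genes and below 0 in 3, with a median of 0.17 against 0.01 over all tested genes. Without C57BL/6 replicate 1 edgeR called 0 of 9, where 25 of 9065 genes, or 0.276%, passed, and the median of the 9 was 0.14. With an offset for transcript GC content and length, the median of the 9 turned to -0.22. A p that misses the threshold does not show equal levels, so the interval of each difference is given.

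**Figure D2:**
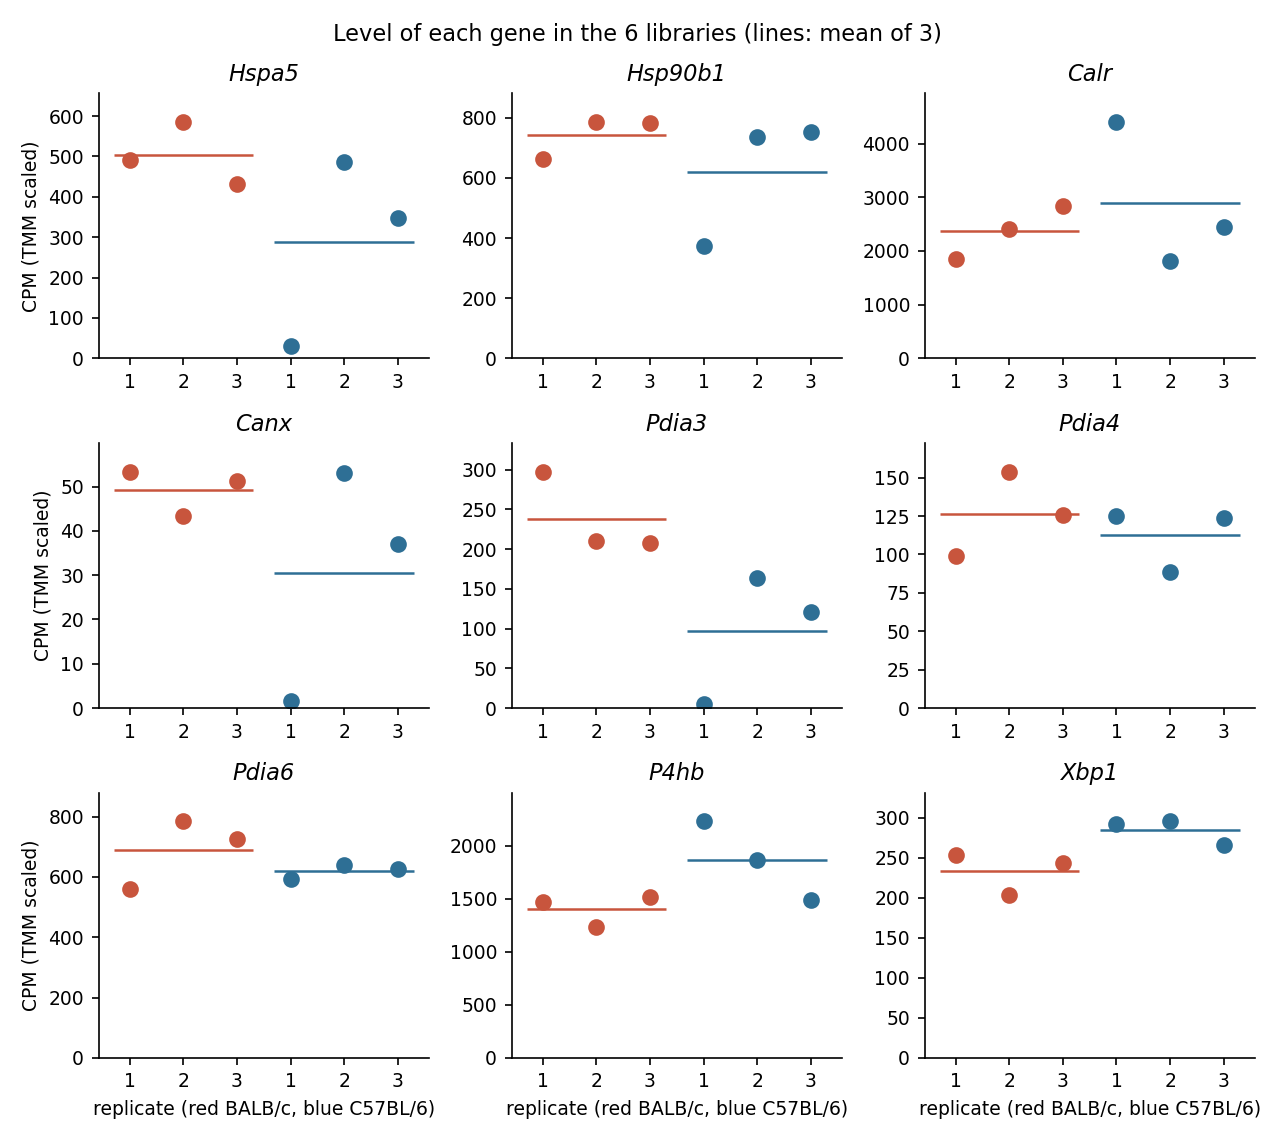
CPM of each of the 9 genes (y axes, from 0) in BALB/c replicates 1 to 3 (red) and C57BL/6 replicates 1 to 3 (blue), with a line at the mean of each strain. C57BL/6 replicate 1 holds 31.3, 1.53 and 5.35 CPM of Hspa5, Canx and Pdia3, far under the other 5 libraries, and the highest Calr and P4hb.

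The Hsp70 and Hsp90 chaperones of the endoplasmic reticulum come first. Hspa5 encodes BiP, which also holds the stress sensors inactive until misfolded protein draws it away. Its level was 491, 586 and 433 CPM in BALB/c replicates 1, 2 and 3 and 31.3, 485 and 347 CPM in C57BL/6 replicates 1, 2 and 3. The strains overlapped, and C57BL/6 replicate 1 alone was low, with 41 counts. Its rate in the other C57BL/6 libraries was 12.0 times that in replicate 1, with a 95% counting interval of 8.81 to 16.7. The BALB/c mean was 503 ± 77.2 CPM and the C57BL/6 mean 288 ± 233 CPM (SD, 3 libraries per strain), a log2 difference of 0.80 ± 0.78 with a 95% interval of -1.03 to 2.64. Without C57BL/6 replicate 1 the difference was 0.27 ± 0.22, and the interval narrowed to -0.26 to 0.80.

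Hsp90b1 encodes GRP94, the Hsp90 paralog that folds integrins and Toll-like receptors. It stood at 662, 786 and 781 CPM in BALB/c, and at 374, 735 and 753 CPM in C57BL/6. Again C57BL/6 replicate 1 was lowest, here by 2.00 times against the other libraries of its strain, while the remaining 5 lay within 662 to 786 CPM. The log2 difference was 0.26 ± 0.31 with all libraries, with an interval of -0.47 to 0.99. It was -0.01 ± 0.17 without C57BL/6 replicate 1, with an interval of -0.42 to 0.41, so the direction turned with that library. With the GC and length offset it was -0.25. Exons of Hsp90b1 overlap those of 3 annotated genes, 1810014B01Rik on the opposite strand and Gm15344 and Gm25745 on its own. Its 3′ end shares 68 nt with Gm15344 at an identity of 100%. As Gm15344 overlaps Hsp90b1 by 84 nt, this need not be a second copy. Reads there can be split or dropped.

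The lectin chaperones behaved unlike each other in C57BL/6 replicate 1. Calr encodes calreticulin, the soluble lectin, which also stores calcium and takes part in loading class I molecules. Calr was at 1852, 2409 and 2841 CPM in BALB/c, and at 4405, 1818 and 2444 CPM in C57BL/6, so replicate 1 of C57BL/6 was the highest of all 6 and the others overlapped. The log2 difference was -0.29 ± 0.36, with an interval of -1.14 to 0.57. It turned to 0.15 ± 0.25 without C57BL/6 replicate 1, with an interval of -0.44 to 0.73.

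Canx encodes calnexin, the membrane-bound lectin of the same cycle. It had 80, 121 and 53 counts in BALB/c and 2, 68 and 181 counts in C57BL/6. In CPM these were 53.4, 43.3 and 51.3 in BALB/c and 1.53, 53.1 and 36.9 in C57BL/6. The 2 counts of C57BL/6 replicate 1 lie under the floor of 3 counts, which is 2.29 CPM in that library, and the ratio of the other C57BL/6 libraries to it was 26.4 with a wide counting interval of 7.22 to 219. The log2 difference between the strains was 0.68 ± 0.84, with an interval of -1.29 to 2.65. With that library left out it was 0.14 ± 0.25, and the interval was -0.46 to 0.73.

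Among the disulfide isomerases Pdia3 was the gene furthest from 0. Pdia3 encodes ERp57, which calnexin and calreticulin recruit to glycoproteins and which forms part of the class I peptide loading complex. Its CPM were 298, 210 and 207 in BALB/c and 5.35, 163 and 121 in C57BL/6. Every BALB/c library lay above every C57BL/6 library, also without C57BL/6 replicate 1, which held 7 counts. BALB/c averaged 238 ± 51.3 CPM and C57BL/6 96.5 ± 81.8 CPM (SD, 3 libraries per strain). C57BL/6 replicates 2 and 3 alone averaged 142 ± 30.1 CPM (SD, 2 libraries). In log2 this was 1.30 ± 0.88, with an interval of -0.76 to 3.36. Without C57BL/6 replicate 1 the difference was 0.74 ± 0.24, with an interval of 0.18 to 1.30. Its edgeR p there was 0.0166 unadjusted and 0.729 adjusted. An unadjusted p under 0.05 was found there for 5.01% of all genes. Over the 16 alternatives its log2 difference ran from 0.74 to 2.07 and its lowest adjusted p was 0.436, with limma-voom's library quality weights. Catsper2 on the opposite strand shares 18 nt with an exon of Pdia3.

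Pdia4 and Pdia6 encode isomerases that work with BiP, and neither was low in C57BL/6 replicate 1. Pdia4 encodes ERp72 and was at 98.7, 154 and 126 CPM in BALB/c and 125, 88.3 and 123 CPM in C57BL/6. The strains overlapped, and the log2 difference was 0.17 ± 0.27 with an interval of -0.47 to 0.80. Without C57BL/6 replicate 1 it was 0.24 ± 0.26. The difference crossed 0 without BALB/c replicate 2, to -0.0059, and with the GC and length offset, to -0.22. Pdia6 encodes P5, an isomerase that also acts on the sensor IRE1. It was at 560, 785 and 726 CPM in BALB/c, and at 594, 639 and 625 CPM in C57BL/6, all of which fall between the lowest and the highest BALB/c library. Its log2 difference was 0.16 ± 0.23, with an interval of -0.37 to 0.69, which is 0.772-fold to 1.61-fold. It was 0.12 ± 0.21 without C57BL/6 replicate 1 and -0.075 with the offset. An exon of Atp6v1c2 on the opposite strand overlaps Pdia6 by 50 nt.

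P4hb encodes protein disulfide isomerase itself. It was at 1466, 1237 and 1513 CPM in BALB/c, and at 2228, 1865 and 1487 CPM in C57BL/6. C57BL/6 replicates 1 and 2 exceeded all BALB/c libraries, and replicate 3 fell among them. Averages were 1405 ± 147 CPM for BALB/c against 1860 ± 371 CPM for C57BL/6 (SD, 3 libraries per strain). The log2 difference was -0.40 ± 0.24 with an interval of -0.96 to 0.15, and -0.26 ± 0.19 without C57BL/6 replicate 1. It lay below 0 in all 16 alternatives, between -0.56 and -0.14, with a lowest adjusted p of 0.670.

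Xbp1, the transcription factor of the response, was counted as total mRNA, so its spliced and unspliced forms are not told apart. Its CPM were 253, 204 and 243 in BALB/c and 293, 295 and 266 in C57BL/6. All C57BL/6 libraries lay above all BALB/c libraries, by a small margin between 253 and 266 CPM. They averaged 233 ± 26.3 CPM for BALB/c against 285 ± 16.2 CPM for C57BL/6 (SD, 3 libraries per strain). The log2 difference was -0.29 ± 0.21, with an interval of -0.79 to 0.21. Without C57BL/6 replicate 1 it was -0.28 ± 0.17, with an interval of -0.69 to 0.14. It lay between -0.36 and -0.20 in all 16 alternatives, and its lowest adjusted p was 0.613.

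Pdia3 and Xbp1 were thus the 2 of 9 genes whose strains did not overlap, in opposite directions. Without C57BL/6 replicate 1 it was again Pdia3 and Xbp1. Of all tested genes, 11.4% had no overlap between strains with 6 libraries and 18.9% with 5.

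**Figure D3:**
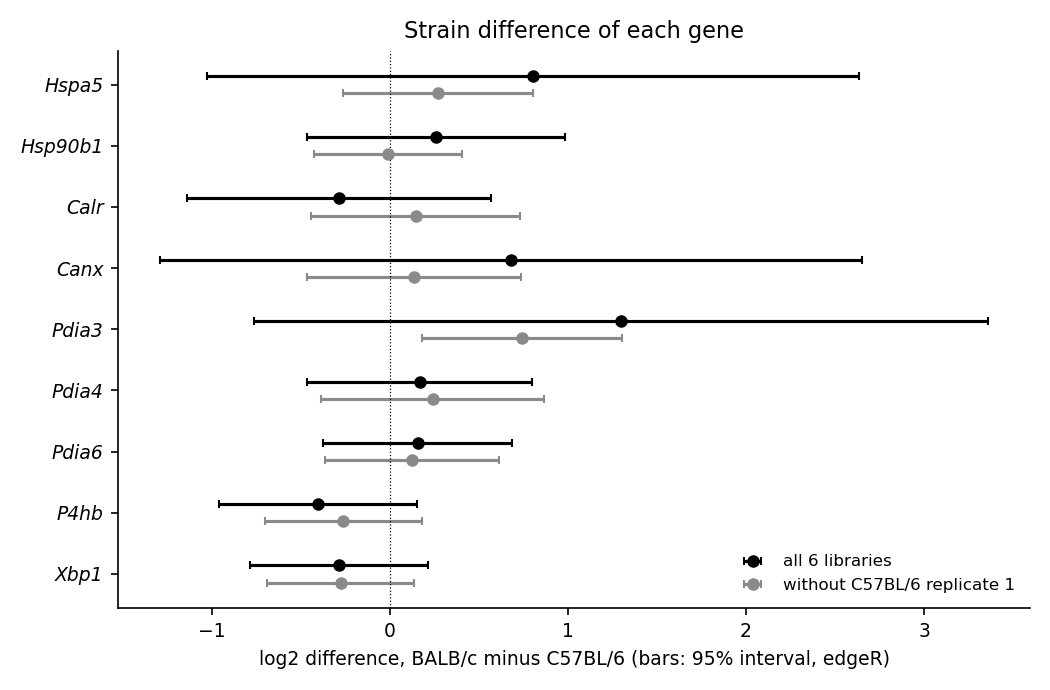
Log2 difference between the strains (x axis, BALB/c minus C57BL/6) with its 95% interval from edgeR for each gene, with all 6 libraries (black) and without C57BL/6 replicate 1 (grey). All black intervals include 0, and those of Hspa5, Canx and Pdia3 are the widest and narrow most in grey; the grey interval of Pdia3 runs from 0.18 to 1.30.

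The median spread of the 9 genes between cultures was near that of other genes, but over 6 libraries 3 genes were far more spread. The median over the 9 of the SD of log2 CPM was 0.41 over 6 libraries and 0.23 over the other 5. For the 4755 genes whose mean log2 CPM reached 5 the medians were 0.40 and 0.26. Over 6 libraries the SD was 1.59 for Hspa5, 1.76 for Canx and 2.06 for Pdia3, and 0.18 to 0.47 for the rest of the 9. In the 5 libraries the SD was lowest for Hsp90b1, at 0.10, and highest for Pdia3, at 0.48. The pair with the most alike profiles over those 5 was P4hb and Xbp1, with a root mean square difference between centred log2 CPM of 0.07, followed by Hsp90b1 and Pdia6 with 0.10. Calr and Pdia3 were the least alike, with 0.55. With all 6 libraries the closest pair was again P4hb and Xbp1, with 0.14, followed by Pdia4 and Pdia6 with 0.20. Hspa5 and Canx, both very low in C57BL/6 replicate 1, had 0.27. The sum over the 9 genes was 0.590% to 0.691% of all counts in BALB/c and 0.607% to 0.693% in C57BL/6, and most of these counts were of Calr and P4hb. Without these, the other 7 genes summed to 2416 to 2767 CPM in BALB/c and to 1424, 2459 and 2272 CPM in C57BL/6 replicates 1, 2 and 3.

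In C57BL/6 replicate 1 the 4 genes of lowest transcript GC content had the 4 lowest deviations. The library's deviation from the mean of the 6 libraries, in log2 CPM, was -3.57 for Canx, -0.82 for Hsp90b1, -3.20 for Hspa5 and -4.11 for Pdia3, whose annotated transcripts have the lowest GC content of the 9, at 42.2%, 43.8%, 45.6% and 46.9%. The other genes deviated by 0.09 (Pdia4, 47.6%), -0.13 (Pdia6, 48.9%), 0.81 (Calr, 50%), 0.19 (Xbp1, 53.0%) and 0.48 (P4hb, 53.8%). By GC content of the last 500 nt the order differed. Pdia4 (37.4%) and Pdia6 (38%) lay under Hsp90b1 (40.2%), Canx (41%) and Pdia3 (42.8%), and Hspa5 (36.6%) was lowest. Across 5494 genes, which are not independent replicates, the deviation of C57BL/6 replicate 1 had a Pearson r of 0.62 with transcript GC content. In the other 5 libraries it was -0.41 to -0.20. With GC content of the last 500 nt, r was 0.66 in C57BL/6 replicate 1 and -0.43 to -0.26 in the others. The deviations of a gene sum to 0 over the 6 libraries, so a positive trend in one library by itself lowers the trends of the others. Of the 1375 genes with a GC content of 31.2% to 48.4%, 29.8% were low there by 4-fold or more, and of the 5 chaperones and foldases in that range 3 were. From there up to 52.7% it was 8.45% of genes and 0 of 2, Calr and Pdia6.

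The trend of that library on GC content and length gave deviations of -1.05 for Hspa5, -1.63 for Canx and -0.82 for Pdia3, smaller in size than those measured. For Hsp90b1 it gave -1.37, larger in size than the -0.82 measured. After that correction Hspa5 was at 64.7 CPM in C57BL/6 replicate 1 against 385 and 307 CPM in replicates 2 and 3. Canx was at 4.72 CPM against 37.5 and 31.6 CPM, and Pdia3 at 9.47 CPM against 135 and 110 CPM. Other genes came out above both of those libraries: Hsp90b1 at 966 CPM against 539 and 668 CPM, Pdia4 at 204 CPM against 74.5 and 114 CPM, Pdia6 at 830 CPM against 565 and 590 CPM, and Calr, already highest before the correction, at 5469 CPM against 1666 and 2335 CPM. P4hb came out at 1948 CPM against 1914 and 1457 CPM, and Xbp1 at 273 CPM against 297 and 263 CPM. The part of RNA quality or of other cells in these values was not tested.

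**Figure D4:**
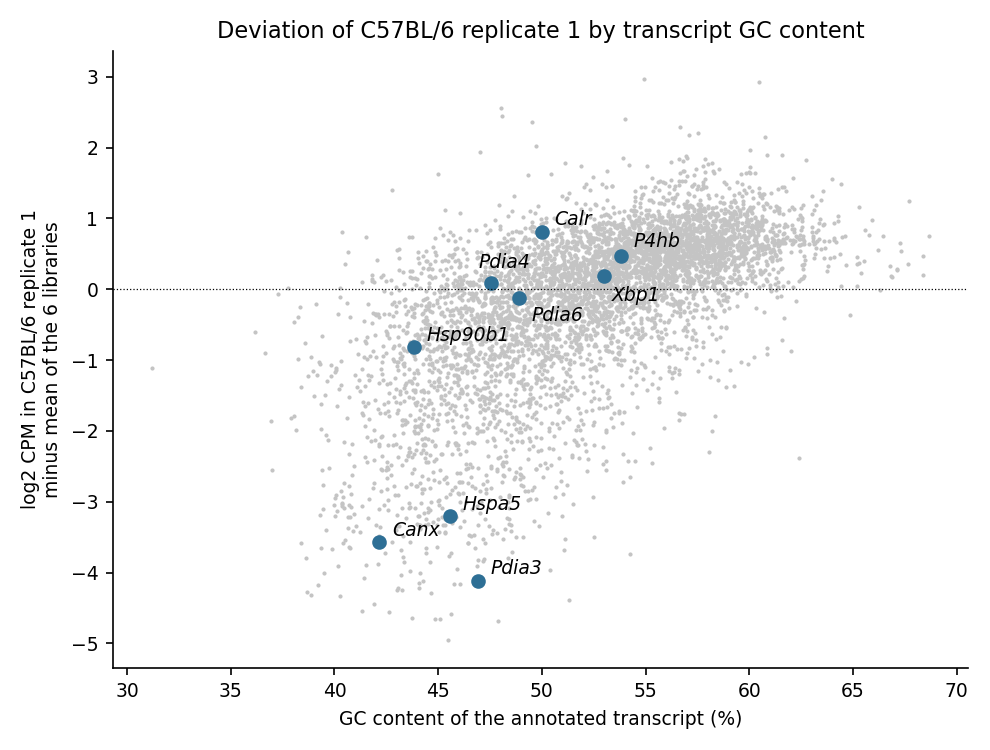
Deviation of C57BL/6 replicate 1 from the mean of the 6 libraries (y axis, log2 CPM) against GC content of the annotated transcript (x axis, percent) for 5494 genes (grey) and the 9 genes (blue, named). Hspa5, Canx and Pdia3 lie below -3 and the 5 genes with a GC content of at least 47.6% lie between -0.13 and 0.81.

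The rest of the pathway was examined in lists drawn up from its known biology. Of 150 tested genes in 11 lists, 0 passed the threshold in edgeR and 4, or 2.67%, had an unadjusted p under 0.05, against 3.86% of all tested genes. Of the 150, 87 lay above 0, or 58.0%, against 51.1% of all tested genes, and the median log2 difference was 0.06. In C57BL/6 replicate 1, 11 of the 131 that averaged 50 counts or more, or 8.40%, were low by 4-fold or more, near the 9.96% of all genes. Among these 11 were Ssr3, Spcs1 and Tram1 of the translocon and signal peptidase, the isomerase Tmx1 and the sensor gene Eif2ak3.

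In the accounts of the lists that follow, each value in parentheses after a log2 difference or a median is the same quantity without C57BL/6 replicate 1. Several of these genes changed direction with that library, so their values are given both ways.

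Of the cochaperones and exchange factors of BiP, 11 of 15 lay above 0, with a median of 0.16 (0.20). Hyou1 encodes GRP170, a nucleotide exchange factor that releases BiP from its clients. It was at 45.4, 57.6 and 84.2 CPM in BALB/c, and at 35.1, 28.1 and 33.9 CPM in C57BL/6, with all BALB/c libraries above all C57BL/6 libraries. Its log2 difference was 0.94 ± 0.32 (0.98), with an edgeR adjusted p of 0.954 and, without C57BL/6 replicate 1, 0.771. Dnajb9, the cochaperone ERdj4 and a target of XBP1, was at 0.86 ± 0.55 (0.46) in log2 difference and had 6 counts in C57BL/6 replicate 1. Sdf2l1 was at 0.37 ± 0.43 (0.20) and Manf, a secreted cofactor of BiP, at 0.16 ± 0.30 (0.20). Cnpy2 was at -0.01 ± 0.22 (0.11).

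Partners of P4hb in collagen folding had a median of -0.14 (-0.28), with 8 of 19 above 0. P4ha1, P4ha2 and P4ha3 encode the catalytic alpha subunits that pair with the product of P4hb. P4ha2 was at 237, 162 and 167 CPM in BALB/c and 309, 429 and 263 CPM in C57BL/6, so all C57BL/6 libraries were above all BALB/c libraries. Its log2 difference was -0.82 ± 0.29 (-0.88), with an unadjusted p of 0.0224 and an adjusted p of 0.954 in edgeR. P4ha1, with only 7 to 38 counts per library, was at -1.06 ± 0.64 (-1.32) and P4ha3 at 0.08 ± 0.40 (-0.01). Serpinh1, the collagen chaperone HSP47, was at -0.24 ± 0.28 (-0.15). Sparc, a collagen-binding glycoprotein, was at 0.10 ± 0.53 (-0.27) and so turned with that library.

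Other disulfide enzymes (14 tested) had a median of 0.11 (-0.05). Both genes of this list with the highest mean log2 CPM turned as well, Selenof at 0.20 ± 0.29 (-0.04) and Selenom at -0.36 ± 0.38 (0.08). Ero1l, the oxidase that recharges protein disulfide isomerase, was at or under 9.38 CPM in every library. It was not tested with all 6 libraries, and without C57BL/6 replicate 1 its difference was 0.09 ± 1.19. Enzymes of the calnexin cycle (8 tested, median -0.03, then -0.11 without that library) read the glycan that Calr and Canx products bind. Uggt1, which marks misfolded glycoproteins for another round, was at -0.08 ± 0.59 (0.20). It had 3 to 40 counts per library, with the 3 in C57BL/6 replicate 2. The glucosidase II subunits were at -0.43 ± 0.28 (-0.17) for Prkcsh and -0.24 ± 0.26 (-0.04) for Ganab.

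The sensors and their processing (12 tested) had a median of 0.07 (0.12). Atf6 was at 0.56 ± 0.41 (0.52), with 48.7 CPM in BALB/c replicate 1 and 19.9 to 24.2 CPM in every other library. Eif2ak3, which encodes PERK, was at 0.82 ± 0.61 (0.41), with 6 counts in C57BL/6 replicate 1. Ern1, which encodes the IRE1 that splices Xbp1 mRNA, was at or under 5.81 CPM in every library and was tested in neither fit. Creb3l1, a factor for collagen secretion, was at -0.61 ± 0.35 (-0.58) and Rtcb, the ligase that joins spliced Xbp1 mRNA, at -0.25 ± 0.22 (-0.15).

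Genes of ER associated degradation (20 tested) had a median of 0.11 (0.07). Herpud1 was at 0.33 ± 0.61 (-0.10), Vcp at -0.29 ± 0.28 (-0.10) and Sec61a1, which is also in the translocon list, at -0.18 ± 0.27 (0.07). The translocon and signal peptidase list (21 tested) had a median of 0.07 (0.05), with Sec61b at 0.04 ± 0.22 (0.05). In the ATF4 and CHOP arm (12 tested) the median was 0.23 (-0.01). Atf4 was at 0.42 ± 0.39 (0.21), Nupr1 at 0.39 ± 0.27 (0.53) and Ddit3, which encodes CHOP, at 0.05 ± 0.54 (0.01). Ddit3 was highest in BALB/c replicate 1, at 237 CPM, and C57BL/6 replicate 2, at 184 CPM, against 68.7 to 121 CPM in the other 4 libraries.

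Partners of Calr and Pdia3 in class I loading (7 tested) had a median of -0.16 (-0.08). Tapbp, which encodes tapasin, was at -0.31 ± 0.49 (0.14), B2m at -0.10 ± 0.48 (-0.51) and H2-D1 at 0.42 ± 0.26 (0.56). Receptors that return escaped chaperones, with calcium handling genes (14 tested), had a median of -0.06 (-0.10). Kdelr2 was at -0.01 ± 0.23 (0.06) and Kdelr1 at -0.14 ± 0.30 (0.18).

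Paralogs outside the endoplasmic reticulum (9 tested) had a median of 0.27 (0.03) and included Hsp90ab1, the cytosolic counterpart of Hsp90b1, at -0.19 ± 0.29 (0.11). Hspa8, the constitutive cytosolic counterpart of Hspa5, was at 527, 925 and 937 CPM in BALB/c, and at 3364, 2017 and 2177 CPM in C57BL/6. Every C57BL/6 library lay above every BALB/c library, and C57BL/6 replicate 1 was the highest, where it was the lowest for Hspa5. The log2 difference of Hspa8 was -1.66 ± 0.33 (-1.40), with an adjusted p of 0.248 in edgeR. It was called lower in BALB/c than in C57BL/6 by DESeq2 (adjusted p = 0.00145) and by limma-voom with library quality weights (adjusted p = 0.0287). In the other 14 alternatives its adjusted p was 0.199 to 0.997. It was the single gene of the 11 lists called in any alternative. The difference between Hspa8 and Hspa5 was not tested.

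**Figure D5:**
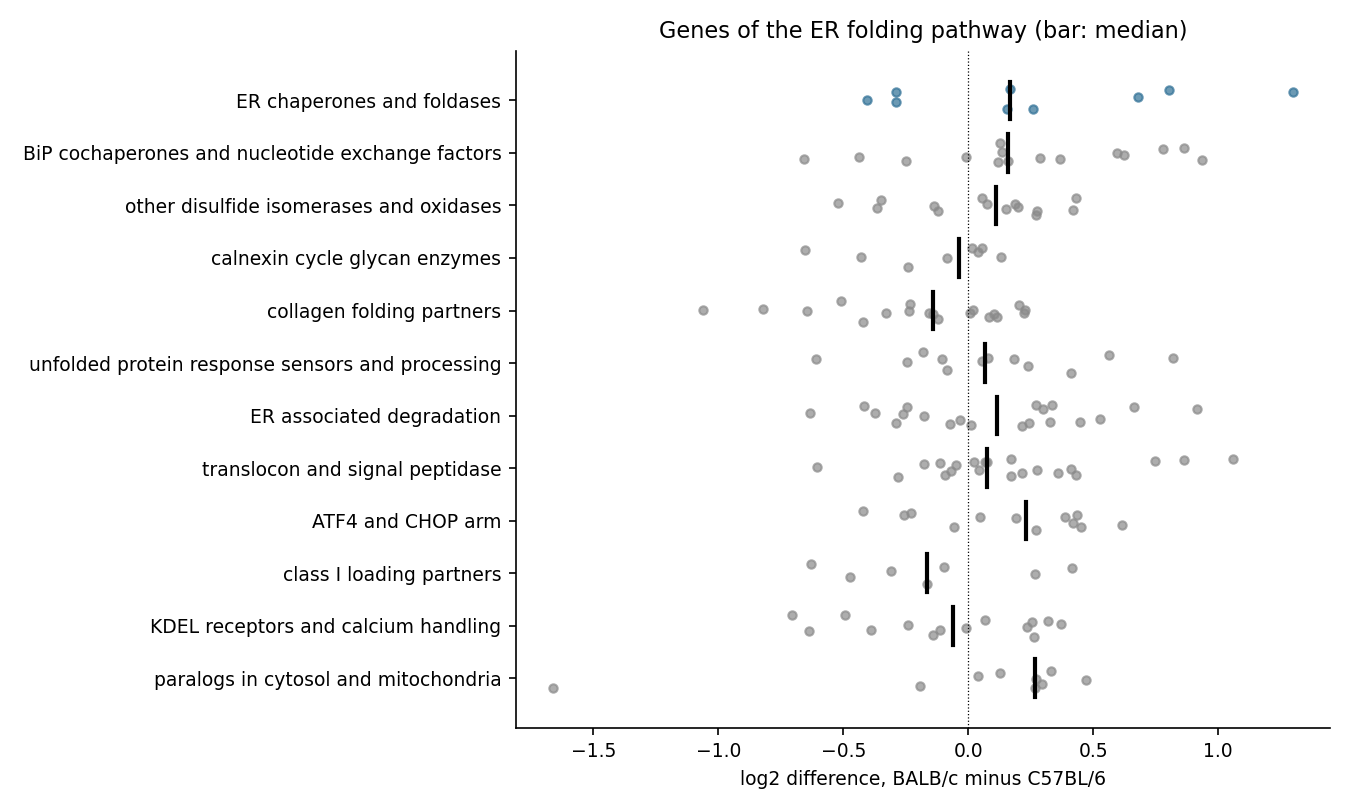
Log2 difference between the strains (x axis, BALB/c minus C57BL/6) of each tested gene, for the 9 chaperones and foldases (blue) and 11 lists of the same pathway (grey), with a bar at the median. The medians lie between -0.16 and 0.27, and Hspa8, at -1.66, is the point furthest from 0.

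Genes with profiles most like the mean of the 9 were sought among 4679 other genes by the root mean square difference of centred log2 CPM over the 6 libraries. They were Ltv1 with 0.05, Polr2b with 0.07, Gtf2b with 0.08, Selenos, of ER associated degradation, with 0.08 and Mdh1 with 0.08. All of these were lowest in C57BL/6 replicate 1, which follows from choosing them by likeness to the mean of the 9. That mean was at -1.14 there against 0.10 to 0.31 in the other libraries. It was carried by Hspa5, Canx and Pdia3, at -3.20, -3.57 and -4.11. Hsp90b1 and Pdia6 were at -0.82 and -0.13, and Calr, P4hb, Xbp1 and Pdia4 lay above 0. Over the 5 libraries without it the nearest were Eif1, Cdipt, Mrpl10, Polr2m and Sh3bgrl3, at 0.03 to 0.04.

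By the GENCODE vM21 annotation of GRCm38 the 9 genes lie on 6 chromosomes. Hspa5 is at chromosome 2, 34771970 to 34777547, and Pdia3 at chromosome 2, 121413775 to 121438687. Canx is at chromosome 11, 50293961 to 50325673, P4hb at chromosome 11, 120560298 to 120573253, and Xbp1 at chromosome 11, 5520659 to 5525893. Hsp90b1 is at chromosome 10, 86690209 to 86705509, Calr at chromosome 8, 84841850 to 84846934, Pdia4 at chromosome 6, 47796141 to 47813430, and Pdia6 at chromosome 12, 17266545 to 17284770.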

How the data were processed

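RNA of 6 cultures was measured, 3 per strain, grouped by the titles in the labels. The values the authors deposited are raw counts, 1 row per gene symbol. The submitters' processing notes name STAR 2.4.2a, HTSeq, bcl2fastq and the build mm10. The annotation, strand setting and use of molecular identifiers were not given in the sources used here. With a C57BL/6J reference, BALB/c reads with mismatches can be lost. Every gene in the table reaches 6 counts in some library.

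Counts were fitted with edgeR 4.0.16 in R 4.3.3 (filterByExpr, TMM factors 0.866 to 1.06, robust quasi-likelihood fit, strain as the only term, two-sided, Benjamini-Hochberg over 8752 genes). The standard error is the log2 difference divided by the root of F. Deviations and profiles used log2 CPM with a prior count of 2. DESeq2 1.42.0, limma 3.58.1, other scalings and filters, a replicate block and each library left out were alternatives, and a GC and length offset was added after seeing the data.

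The genes and lists were chosen with earlier results of these data known. Named were the 9 genes, fixed partners, and per list up to 2 genes per direction past the threshold or else the 2 with the highest mean log2 CPM. The 5 most alike genes were named too. Genes named beyond this are examples of the low genes in C57BL/6 replicate 1 and the holders of a promoter match, chosen after their values were seen.

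Transcript features came from GENCODE vM21 (GRCm38) for 98.6% of genes, from 1 transcript per gene. Sequence shared with transcripts of other genes was searched with BLAST+ 2.17.0 over the last 500 nt, at 95% identity over at least 60 nt. It was found for Hsp90b1 alone, with the overlapping gene Gm15344, so no copy elsewhere is shown. Pairs of replicates of a strain had chi-square values of 10.8 to 57.2 times their degrees of freedom, so none was counted as a copy of another. The 95% counting intervals are exact. Like the floor of 3 counts, which is 0.612 to 2.90 CPM, they cover counting error only.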

Additional observations from a re-analysis of the deposited data

How the results depend on the processing

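The count of called chaperones and foldases was 0 of 9 under all 16 alternatives, and 137 of their 144 log2 differences kept the direction of the main fit. With the GC and length offset, chosen after seeing the data, Hsp90b1 was at -0.25, Pdia4 at -0.22 and Pdia6 at -0.075, while Calr was at 0.069 when limma-voom weighted the libraries by quality. With 1 library left out, Calr ran from -0.51 (without C57BL/6 replicate 2) to 0.15 (without C57BL/6 replicate 1), Hsp90b1 from -0.0086 (without C57BL/6 replicate 1) to 0.41 and Pdia4 from -0.0059 (without BALB/c replicate 2) to 0.31. The median of the 9 ran from 0.05 to 0.31 with 1 library left out. It was -0.22 with the offset and 0.12 to 0.25 in the other alternatives. Of all tested genes edgeR called 18, 6 higher and 12 lower in BALB/c, against 11 (5 and 6) with library totals alone, 71 with DESeq2, 3 with limma-voom, 57 with quality weights and 0 to 25 with 1 library left out. Hspa8 was the 1 gene of the pathway lists called with DESeq2 and the 1 called with quality weights. The cause of these changes was not tested. With the replicate block edgeR called 0 of 8752 genes, 158 at an unadjusted p under 0.05. Deviations from the strain mean correlated at -0.42, -0.40 and -0.08 between same-numbered libraries, and at 0.58 between BALB/c replicate 1 and C57BL/6 replicate 2. With deviations centred within each strain, these values cannot show whether same-numbered cultures were prepared together. The 2 and 7 counts of Canx and Pdia3 in C57BL/6 replicate 1 limit how far below the other libraries they can be placed.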
